A study of Canis lupus familiaris and Dasypus novemcinctus and Ornithorhynchus anatinus with 3 samples.

Results

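The genes described here build, fold, check and export secreted and membrane proteins at the endoplasmic reticulum (ER), and their transcripts were compared in the lining of the pregnant uterus (endometrium) of dog, armadillo and platypus. The list held 50 genes chosen by function, with earlier results of these data known. A gene was kept where its symbol was listed in at least 2 of the 3 deposited tables. This left 46 genes of the 12476 symbols that could be matched between at least 2 tables, and 24 of them were listed in all 3. By role they comprised 10 genes of the translocon and signal peptidase, 6 of N-glycosylation, 8 chaperones, 6 of degradation, 12 of transport to and from the Golgi, and 4 stress sensors and transcription factors. Of the other 4 genes, SSR2, SEC61B and HSP90B1 were listed by symbol only in armadillo, and MCFD2 only in dog.

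The libraries were made from RNA of pregnant endometrium of Canis lupus familiaris, Dasypus novemcinctus and Ornithorhynchus anatinus, with 1 library per species. Dog and armadillo are placental mammals (eutherians), and platypus is an egg-laying mammal. No treatment is named, and no gestational stage or animal number was available. The dog and armadillo tables summed to 13625465 and 13218476 reads, the platypus table to 2243556, and levels are reads per 1000000 (CPM) of these sums. The genes listed by symbol in a single table stood at 147 CPM (SSR2), 35.3 CPM (SEC61B) and 1551 CPM (HSP90B1) in armadillo and at 22.9 CPM (MCFD2, partner of LMAN1 in cargo export) in dog.

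A protein bound for secretion is fed into the ER through the SEC61 channel, which works with the translocon-associated protein (TRAP, genes SSR1 to SSR4) and with SEC62 and SEC63. The signal peptidase complex (SPCS genes) cuts off the signal peptide, and oligosaccharyltransferase attaches the first sugar chain. Chaperones such as BiP (HSPA5) and calreticulin (CALR) then fold the protein, misfolded protein is drawn back out and degraded, and folded protein leaves in vesicles with a COPII coat. The unfolded protein response, sensed by ATF6, by IRE1 (ERN1) and by a kinase not listed among these genes, adjusts the machinery to the load. Uterine glands and decidual stroma are secretory tissues.

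With 1 library per species, differences have no replicate check. Intervals are exact 95% intervals for counting error only, since reads carry no molecular identifiers and may repeat a molecule. Counts were not divided by gene length, so a ratio between species also holds any difference between the gene models. The RNA came from whole tissue, in which fewer cells of a type and less RNA per cell cannot be told apart. A gene was counted as different where CPM plus 1 differed at least 4-fold and the higher library had at least 5 CPM.

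Most of these genes were among the better expressed of each library. Among genes with at least 1 read, the median member lay at percentile 85.6 in dog (36 members), 82.6 in armadillo (44 members) and 96.9 in platypus (34 members with reads). In platypus 25 of 34 members were in the top 10% of such genes, against 13 of 36 in dog and 15 of 44 in armadillo. The gene sets differ, and the dog count leaves out rows under protein entry names, described below. Among those, SSR1, SEC61A1, DDOST and CANX lay at dog percentiles 94.5 to 99.7, and SPCS2 and SEC61G at 86.5 and 71.9. These ranks do not depend on scaling between libraries, though counts of different genes are not per length and the platypus library had fewer genes with reads, 10653 against 15084 in dog and 12335 in armadillo.

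**Figure D1:**
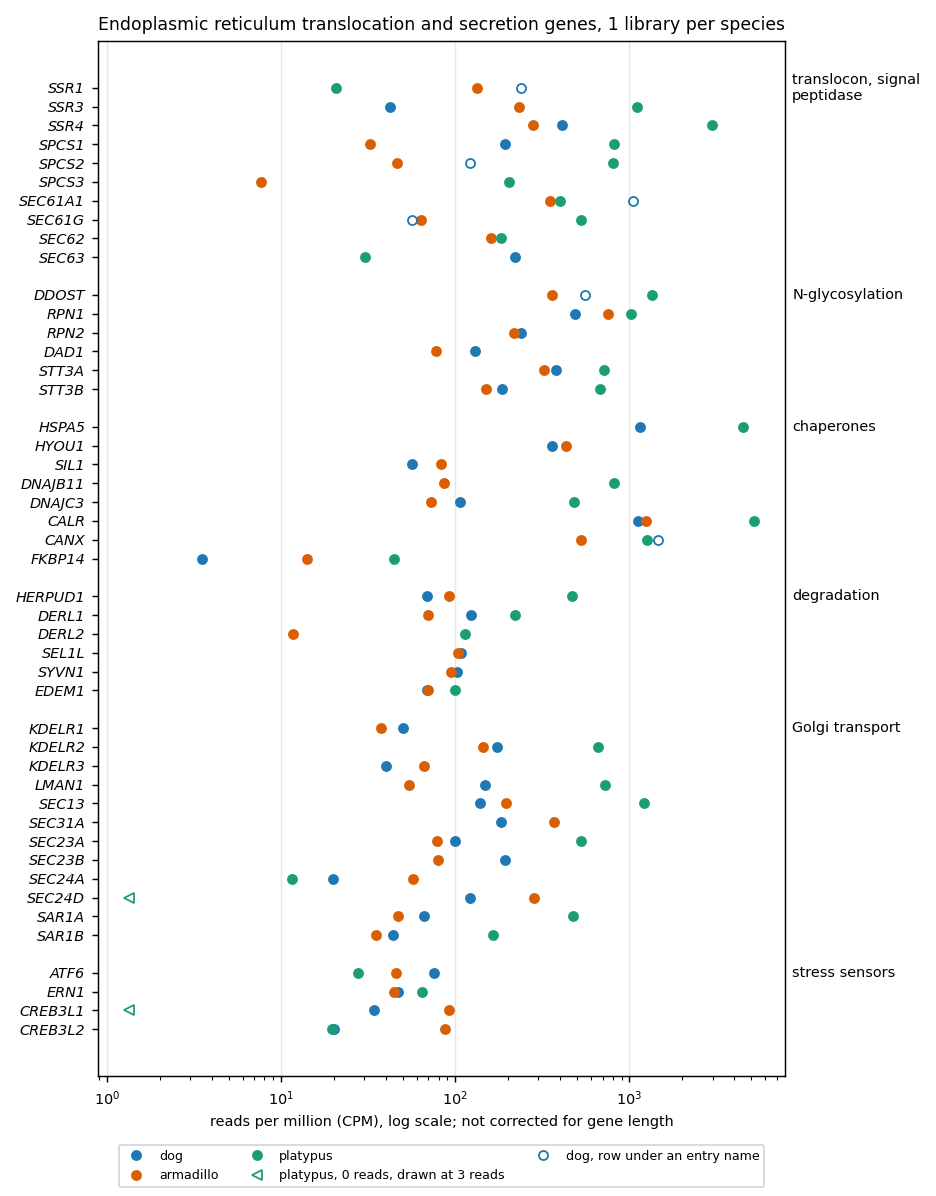
Level of each of the 46 genes in the dog (blue), armadillo (orange) and platypus (green) library, in CPM on a log axis, grouped by role, with 1 point per library. Filled points are rows under the gene symbol, open circles are dog rows under a protein entry name, and open triangles mark genes with 0 reads in platypus, drawn at 3 reads; CALR stood at 5191 CPM in platypus, against 1119 in dog and 1248 in armadillo.

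Dog and armadillo were compared to describe the machinery in a pair of placental mammals. Of the 34 members listed in both tables, 1 was called higher in dog, where 12.6% of all 8856 matched genes were called higher, and 2 in armadillo, where 13.2% were. The median log2 ratio of dog over armadillo was 0.09 over the members and 0.00 over all genes, and the sign of the members' median flipped to -0.22 under median-of-ratios scaling. Where 2 CPM was required in both libraries the same members were called, beside 13.3% and 9.71% of the 6641 genes left. Without that filter, 522 matched genes had 0 reads in dog, while genes without reads are absent from the armadillo table. Genes silent in 1 library can thus add only to the share called higher in armadillo. With 1 CPM added, 70.6% of the members and 46.0% of all matched genes lay within 2-fold of each other, and without it 70.6% and 37.0%.

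SPCS1, a small subunit of signal peptidase, was the member called higher in dog. It stood at 192 CPM in dog and 32.3 in armadillo, a 5.95-fold difference (95% interval 5.37 to 6.61). SSR3, the gamma subunit of TRAP, went the other way, with 42.1 CPM in dog and 232 in armadillo, 5.51-fold higher in armadillo (95% interval 5.03 to 6.03). The transcription factor gene CREB3L2, which acts on secretory pathway genes, stood at 20.1 CPM in dog and 87.0 in armadillo, 4.33-fold higher in armadillo (95% interval 3.79 to 4.95). Its relative CREB3L1 had 34.1 and 92.3 CPM, 2.70-fold higher in armadillo and below the 4-fold limit.

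The other members differed less. The peptidyl-prolyl isomerase gene FKBP14 had 3.52 CPM in dog and 14.1 in armadillo (186 reads) and was 3.99-fold higher in armadillo (2.89 to 5.61), not called. LMAN1, a cargo receptor for glycoproteins, was 2.73-fold higher in dog (147 against 54.1 CPM) and SEC23B, a COPII coat subunit, 2.44-fold higher in dog (194 against 79.4). The COPII genes SEC24A, SEC24D and SEC31A were 2.89-fold, 2.33-fold and 2.01-fold higher in armadillo. The glycosylation and degradation genes had the narrowest ranges, with log2 ratios of dog over armadillo from -0.62 to 0.74 and from -0.41 to 0.81. SEL1L had 108 and 104 CPM, SYVN1 102 and 94.3, and EDEM1 69.1 and 69.8 in dog and armadillo. SEL1L and SYVN1 encode the membrane complex that sends misfolded protein to the proteasome, and EDEM1 marks misfolded glycoproteins for it.

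Platypus was set against each eutherian to compare the machinery of an egg-laying mammal with that of the placental mammals. Members were mostly higher in platypus. Of the 26 members listed in dog and platypus, 11 were called higher in platypus, where 9.92% of all 9028 matched genes were, and 3 in dog, where 31.9% of all genes were. Of the 34 listed in armadillo and platypus, 18 were called higher in platypus, where 11% of all 7296 genes were, and 5 in armadillo, where 36.1% of all genes were. Both comparisons use the same platypus library, so they are not independent of each other. Genes without reads are absent from the armadillo table, whereas 1903 of the 7296 genes had 0 reads in platypus. The 11% therefore holds no gene silent in armadillo, while genes silent in platypus can add to the 36.1%. This limit applies wherever these shares are used below. Shares with 2 CPM required in both libraries are free of genes at 0 on either side.

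The median log2 ratio of platypus over dog was 1.89 over the members and -0.61 over all genes, and that of platypus over armadillo was 2.11 and -1.06. Many genes were listed at 0 in platypus. With 2 CPM required in both libraries, the median log2 ratio of dog over platypus was -1.94 over members and 0.52 over all genes. That of armadillo over platypus was then -2.17 and 0.26, so the distance of members from all genes was smaller than without the filter. Among genes at 2 CPM or more in both libraries, calls higher in platypus were 11.1% of 4520 genes against dog and 14.5% of 4237 against armadillo, with the same 11 and 18 members. Calls higher in the eutherian were then 25.9% of genes for dog, with 1 member (SEC63), and 22.9% for armadillo, with 3 (SSR1, SEC24A and CREB3L2). The members' log2 ratios spread less than those of all genes. Their interquartile ranges were 1.89 against dog and 2.50 against armadillo, beside 3.36 and 3.71 over all genes, which include many at 0. With 2 CPM required in both libraries the ranges over all genes were narrower. Their quartiles were then -0.91 and 2.05 for dog over platypus and -1.20 and 1.82 for armadillo over platypus.

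**Figure D2:**
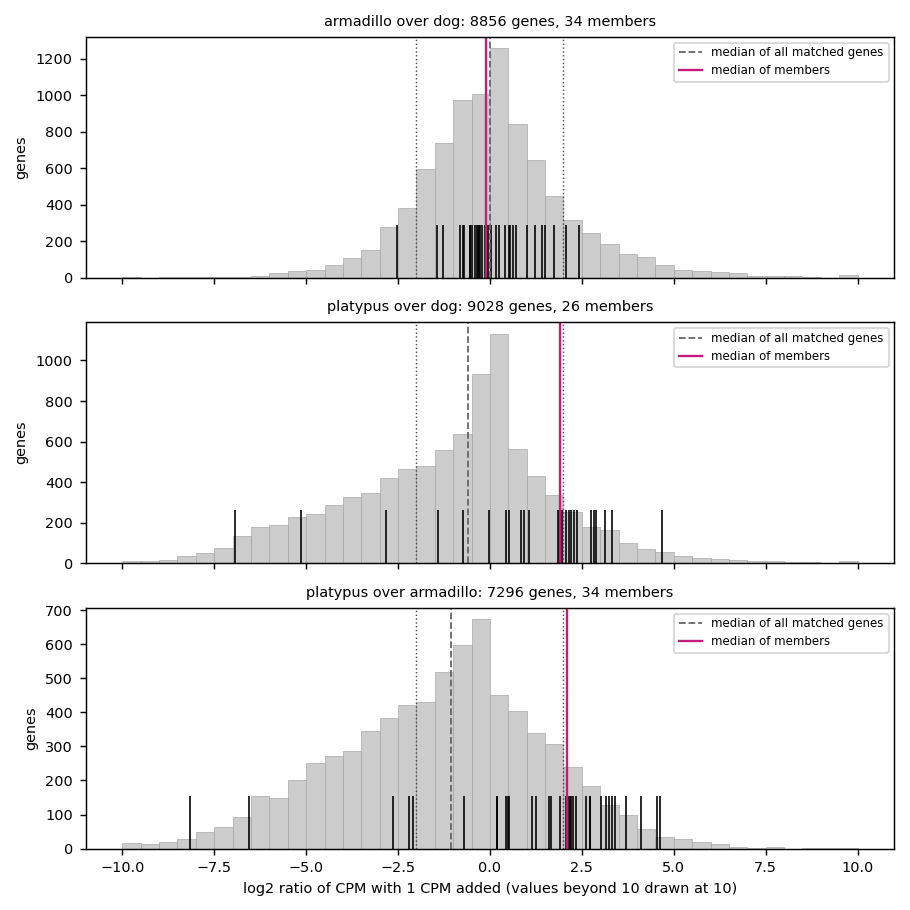
Distribution of log2 ratios of CPM (with 1 CPM added) over all matched genes (grey bars, number of genes) for each pair of libraries, with members as black ticks, the median of all genes dashed, the median of members in pink and the 4-fold limits dotted. The members sit near 0 for armadillo over dog and mostly to the right of the bulk of genes in both platypus panels, with a median of 1.89 against dog and 2.11 against armadillo.

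The 24 members listed in all 3 tables together took 1.77% of platypus reads (95% interval 1.75 to 1.79), 0.417% of dog reads (0.414 to 0.420) and 0.450% of armadillo reads (0.446 to 0.453). Without CALR, which had the most reads of them, the shares were 1.25%, 0.305% and 0.325%. The chaperone, translocon and Golgi transport groups each took a larger share in platypus than in either eutherian. The stress sensor group went the other way, at 0.0111% in platypus, 0.0176% in dog and 0.0270% in armadillo.

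**Figure D3:**
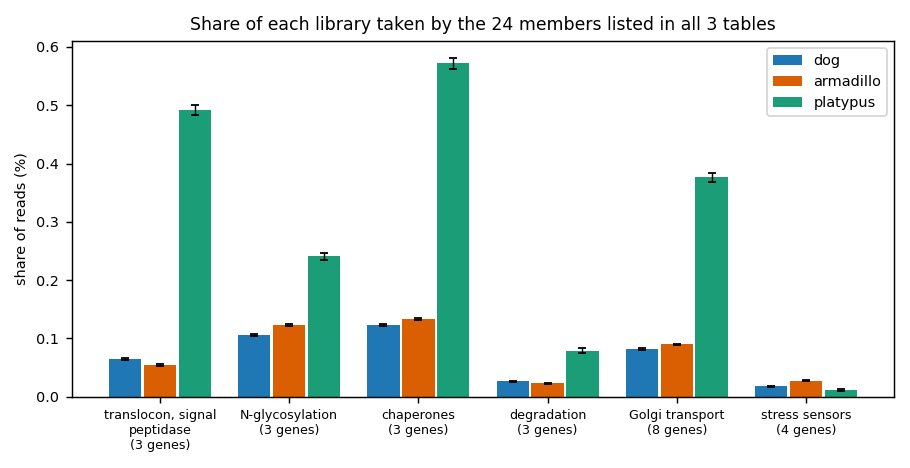
Share of each library's reads, in percent, taken by the members of each role that were listed in all 3 tables, with exact 95% intervals for counting error. The platypus bar is the highest for every role but the stress sensors, where platypus has 0.0111% of reads against 0.0176% in dog and 0.0270% in armadillo.

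The translocon and signal peptidase group held the highest ratios of platypus over either eutherian among members, and also members that went the other way. SSR4, the delta subunit of TRAP (ENSOANG00000005182 in platypus), stood at 407 CPM in dog, 280.1 CPM in armadillo and 2996 CPM in platypus. It was 7.36-fold higher in platypus than in dog (95% interval 7.10 to 7.63) and 10.7-fold higher than in armadillo (10.3 to 11.1). SSR3 (ENSOANG00000004865) stood at 42.1, 232 and 1106 CPM. Platypus exceeded dog 26.3-fold for SSR3 (24 to 28.8), the highest ratio of platypus over dog among members, and armadillo 4.78-fold (4.53 to 5.04).

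SSR1, the alpha subunit of the same complex, differed in the opposite direction. It had 134 CPM in armadillo and 20.5 CPM (46 reads) in platypus, 6.52-fold higher in armadillo (95% interval 4.87 to 8.94). The subunits of TRAP were therefore unevenly represented in the platypus table. They were also uneven in dog, with 407 CPM for SSR4 and 42.1 CPM for SSR3, while in armadillo SSR1, SSR3 and SSR4 all lay between 134 and 280.1 CPM. These levels of different genes are not per length. Whether the platypus gene model of SSR1 is complete was not tested.

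All 3 SPCS genes of signal peptidase were higher in platypus than in armadillo. SPCS1 stood at 192 CPM in dog, 32.3 in armadillo, and 816 CPM in platypus, a 4.24-fold difference from dog (3.995 to 4.51) and 25.3-fold from armadillo (22.7 to 28.1). SPCS2 had 46.2 CPM in armadillo and 809 in platypus, 17.5-fold higher (16.0 to 19.2). SPCS3 had 7.64 and 202 CPM, 26.5-fold higher in platypus (21.3 to 33.2), the highest CPM ratio of platypus over armadillo among members. Its interval overlapped that of SPCS1, which had the higher ratio once 1 CPM was added.

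The channel itself was uneven. SEC61G, its small gamma subunit, had 63.6 CPM in armadillo and 525 in platypus and was 8.25-fold higher in platypus (7.54 to 9.02). SEC61A1, the pore-forming subunit, stood at 347 and 397 CPM, 1.14-fold apart (1.06 to 1.23). SEC62, which helps post-translational import, had 159.6 and 183 CPM. SEC63, its partner that recruits BiP, was called higher in dog than in platypus, with 220.0 CPM against 30.3 CPM (68 reads), 7.26-fold (5.71 to 9.37).

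**Figure D4:**
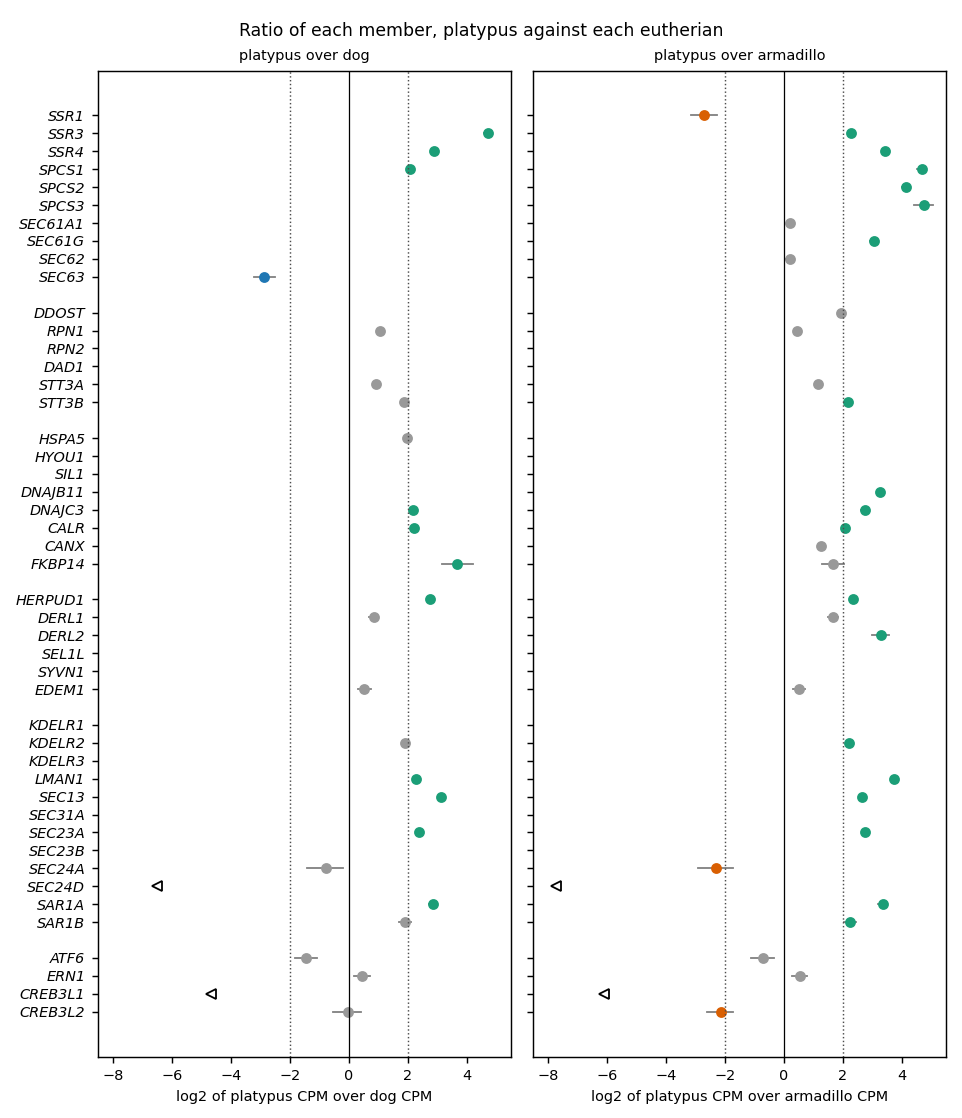
Log2 ratio of CPM of platypus over dog (left) and over armadillo (right) for each member, with 95% intervals for counting error, 4-fold limits dotted, and no point where a table did not list the gene. Green points were called higher in platypus, blue or orange points higher in the eutherian, grey points neither, and triangles are bounds for SEC24D and CREB3L1, which had 0 reads in platypus.

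The oligosaccharyltransferase genes differed less than the translocon group. Every matched member was higher in platypus, but 0 of 3 passed the 4-fold limit against dog (9.92% of all genes) and 1 of 4 against armadillo (11% of all genes). STT3B, the catalytic subunit that glycosylates proteins after import, was the one that passed: it had 185 CPM in dog, 150.3 in armadillo, and 674 CPM in platypus, 4.48-fold above armadillo (4.19 to 4.80) and 3.64-fold above dog. STT3A, the catalytic subunit that works during import, had 376, 322 and 716 CPM, 1.91-fold above dog and 2.22-fold above armadillo.

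RPN1 (ribophorin I, a non-catalytic subunit) had 489 CPM in dog, 750.2 in armadillo, and 1017 CPM in platypus and was the least different of the group against armadillo, at 1.36-fold. DDOST, another subunit, stood at 359 CPM in armadillo and 1355 in platypus, 3.78-fold apart and just under the limit. RPN2 (238 and 217 CPM) and DAD1 (129.5 and 77.01 CPM) were listed in dog and armadillo only.

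Among chaperones, all 5 members matched between armadillo and platypus and all 4 matched between dog and platypus were higher in platypus. The limit was passed by 3 in each comparison, beside 9.92% of all genes against dog and 11% against armadillo. CALR, a lectin chaperone that also stores calcium (ENSOANG00000009799), had 1119 CPM in dog, 1248 in armadillo, and 5191 CPM in platypus. It was 4.64-fold above dog (4.53 to 4.75) and 4.16-fold above armadillo (4.06 to 4.26), while the eutherian values were 1.12-fold apart. DNAJC3, a co-chaperone of BiP, had 107, 72.5 and 481 CPM, 4.50-fold above dog (4.16 to 4.88) and 6.64-fold above armadillo (6.08 to 7.25).

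HSPA5, which encodes BiP, the main HSP70 of the ER, stood at 1149 CPM in dog and 4491 in platypus, 3.91-fold apart (3.81 to 4.01) and just under the limit. It passed the limit under both other scalings. DNAJB11, another BiP co-chaperone, had 85.6 CPM in armadillo and 819.7 in platypus, 9.58-fold higher (8.89 to 10.3). CANX (calnexin, the membrane-bound partner of calreticulin) was 2.39-fold higher in platypus than in armadillo (1265 against 529 CPM). FKBP14 was called against dog only, with 44.6 CPM in platypus, 12.7-fold above dog (8.88 to 18.2) and 3.17-fold above armadillo. HYOU1, an HSP70 relative, stood at 361 CPM in dog and 431 in armadillo, and SIL1, a nucleotide exchange factor for BiP, at 56.7 and 82.5. Both were listed only in the eutherian tables.

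Of the degradation genes, 1 of 3 passed the limit against dog (9.92% of all genes) and 2 of 4 against armadillo (11% of all genes), all higher in platypus. Groups this small cannot be ranked by such counts. HERPUD1, a membrane protein of the degradation complex and a stress response gene, had 69.1 CPM in dog, 91.99 in armadillo, and 468.5 CPM in platypus. It was 6.78-fold above dog (6.21 to 7.41) and 5.09-fold above armadillo (4.68 to 5.54). DERL2, a derlin thought to help move misfolded protein out of the ER, had 11.7 CPM in armadillo and 113 in platypus, 9.65-fold higher (7.88 to 11.9). DERL1 differed 1.80-fold from dog and 3.17-fold from armadillo, with 123, 69.8 and 221 CPM, and EDEM1 was 1.44-fold and 1.42-fold higher in platypus.

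The genes of transport between ER and Golgi were split within the COPII coat. SEC13, a subunit of its outer cage, had 138 CPM in dog, 196 in armadillo, and 1211 CPM in platypus, 8.79-fold above dog (8.29 to 9.33) and 6.17-fold above armadillo (5.85 to 6.51). SEC23A, of the inner coat, had 100.03, 78.0 and 523 CPM, 5.23-fold (4.83 to 5.66) and 6.71-fold (6.17 to 7.30) above dog and armadillo. SAR1A, the GTPase that starts coat assembly, had 66.3, 46.8 and 473 CPM, 7.13-fold (6.52 to 7.80) and 10.1-fold (9.15 to 11.2) above them.

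The cargo-binding SEC24 subunits went the other way. SEC24D (ENSOANG00000003310) had 122 CPM in dog, 284 in armadillo and 0 reads in platypus. With 3 reads over the platypus library (1.34 CPM) as the floor, the one-sided 95% limit of a count of 0, it was at least 90.9-fold higher in dog and at least 212-fold higher in armadillo. The lower ends of the exact intervals, which are two-sided, were 73.9 and 173. These bounds cover counting error only, and 42.4% of the genes listed in platypus had 0 reads. Whether the platypus gene model of SEC24D is complete was not tested. SEC24A had 19.8, 57.3 and 11.6 CPM (26 reads in platypus) and was 4.94-fold higher in armadillo than in platypus (3.35 to 7.61), a call that was lost under median-of-ratios scaling.

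LMAN1 had 147 CPM in dog, 54.1 in armadillo, and 722 CPM in platypus, 4.89-fold above dog (4.58 to 5.23) and 13.3-fold above armadillo (12.2 to 14.6). KDELR2, a receptor that returns escaped ER proteins from the Golgi, had 174, 144 and 659 CPM, 3.78-fold above dog and 4.58-fold above armadillo. SAR1B, close in sequence to SAR1A, had 43.8, 34.8 and 164 CPM, 3.73-fold and 4.70-fold higher in platypus. Reads were short (34 bases in dog), and how reads shared by related genes such as SAR1A with SAR1B or STT3A with STT3B were counted is not stated. KDELR1, KDELR3, SEC23B and SEC31A were not listed by symbol in platypus.

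The stress sensors and their transcription factors did not all share the direction of the other groups. ATF6, a membrane-bound transcription factor released under ER stress, had 75.2 CPM in dog, 45.7 in armadillo and 27.6 CPM (62 reads) in platypus, 2.72-fold higher in dog (2.11 to 3.58) and 1.65-fold higher in armadillo (1.27 to 2.18) than in platypus. ERN1, the sensor IRE1, had 46.9, 44.6 and 64.2 CPM. It was higher in platypus, 1.37-fold above dog (1.13 to 1.64) and 1.44-fold above armadillo (1.19 to 1.73). CREB3L2 had 20.1, 87.0 and 19.6 CPM, and its interval for dog over platypus included 1 (ratio 1.03, 0.744 to 1.44). Its direction turned under the other scalings, with log2 ratios of dog over platypus of -0.53 and -0.45 against 0.03. CREB3L2 was 4.44-fold higher in armadillo than in platypus (3.28 to 6.14), a call that both other scalings ended. CREB3L1 had 34.1 and 92.3 CPM in dog and armadillo and 0 reads in platypus, at least 25.5-fold and at least 69.0-fold below them with that floor. The lower ends of the exact intervals were 20.7 and 56.0. Whether the platypus gene model of CREB3L1 is complete was not tested.

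Several members were missing from the dog table under their symbol because their rows carried a UniProt protein entry name. Dog pancreas was a classic source of ER membranes for biochemistry, and 9 members could be matched to such rows from the meaning of the entry names, a step added after the data were seen. They were SSR1 (SSRA_CANFA), SSR2 (SSRB_CANFA), SPCS2, SEC61A1, SEC61B, SEC61G, DDOST (OST48_CANFA), CANX (CALX_CANFA) and HSP90B1 (ENPL_CANFA). The dog rows SSR1_CANFA and SSR2_CANFA carry the entry names of somatostatin receptors and were not used.

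These rows gave dog values for 6 more genes of the translocon and signal peptidase. SSR1 stood at 237 CPM in dog, 11.5-fold above platypus (95% interval 8.64 to 15.8), the same direction as in armadillo. SEC61A1 stood at 1052 CPM in dog, 3.03-fold above armadillo and 2.65-fold above platypus. SEC61B, the beta subunit of the channel, stood at 156 CPM in dog and 35.3 in armadillo and was called higher in dog, 4.42-fold (3.996 to 4.90), beside SPCS1. SEC61G (56.2 CPM) and SPCS2 (122 CPM) were 9.33-fold (8.51 to 10.2) and 6.64-fold (6.21 to 7.11) higher in platypus than in dog. CANX stood at 1464 CPM in dog, 2.77-fold above armadillo and 1.16-fold above platypus, and HSP90B1, the ER member of the HSP90 family, at 1891 CPM in dog and 1551 in armadillo. Counting the 6 of these rows that had a platypus match, 13 of 32 members were called higher in platypus than in dog and 4 in dog. The shares beside them, 9.92% and 31.9%, are of the 9028 genes matched by symbol and hold no rows under entry names.

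The dog table also gave a relative abundance that divides reads by gene length, so that levels of different genes could be compared within dog. A dog value by symbol or entry name was at hand for 46 of the 50 listed genes, all but SEC62, SPCS3, DNAJB11 and DERL2. This set includes SSR2, SEC61B, HSP90B1 and MCFD2 and so differs from the 46 genes compared between species. Of the genes with a dog value, 44 lay above the median dog gene with reads and 21 were in the top 10%. The median was 26.9 times that gene for chaperones, 18.9 for the translocon group, 15.0 for glycosylation, 4.19 for degradation, 3.87 for Golgi transport and 1.504 for stress sensors. CALR led at 80.8 times the median gene, followed by CANX (58.3), HSP90B1 (54.1), SSR4 (52.5) and HSPA5 (44.3).

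Subunits of the same complex differed per length in dog. Within TRAP, SSR4 stood at 52.5 times the median gene, SSR2 at 20.9 and SSR1 at 16.9, whereas SSR3 stood at 4.15, 12.7-fold below SSR4. The SEC61 subunits lay closer, at 25.6 (SEC61A1), 21.1 (SEC61B) and 11.6 (SEC61G). In oligosaccharyltransferase the order ran from DDOST (32.7) over DAD1 (22.9), RPN1 (19.2), STT3A (10.7) and RPN2 (9.67) to STT3B (5.94). FKBP14 (0.438) and SEC24A (0.844) were the genes below the median gene. These are single values, and neighbours in these orders were not tested against each other.

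**Figure D5:**
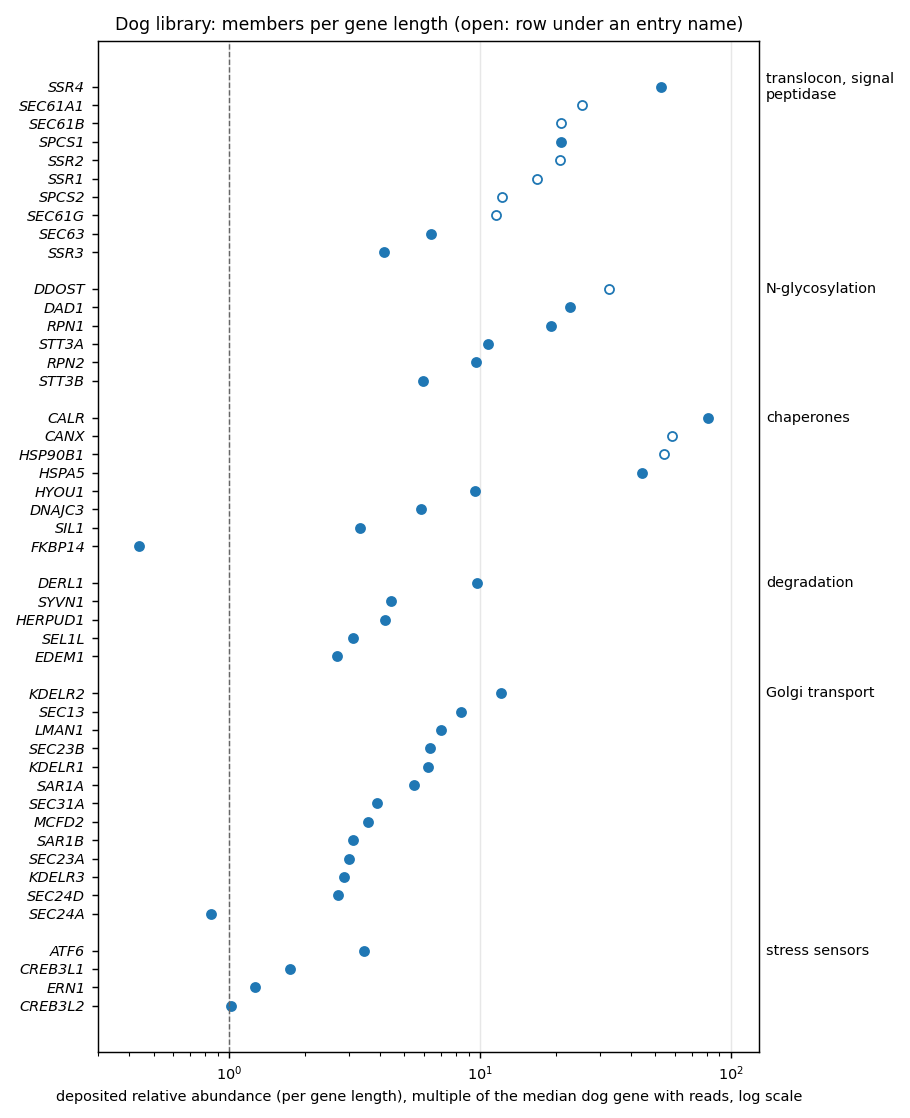
Deposited relative abundance of each gene in the dog library, which is per gene length, as a multiple of the median dog gene with reads (log axis), ordered within each role. Filled points are rows under the symbol and open points rows under an entry name; 44 of 46 genes lie to the right of the dashed line at 1, led by CALR at 80.8.

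A further list of 66 genes of the same pathway covered the signal recognition particle, other translocon, glycan trimming and degradation genes, the COPI coat, other COPII and cargo genes, and other stress genes. Of 35 matched between dog and platypus, 7 were called higher in platypus (9.92% of all genes) and 11 in dog (31.9% of all genes), and 19 had a log2 ratio toward platypus. Of 37 matched between armadillo and platypus, 7 were called higher in platypus (11% of all genes) and 11 in armadillo (36.1% of all genes), and 22 had a log2 ratio toward platypus. How this list differs from the members was not tested. The median log2 ratios of platypus over dog and over armadillo were 0.37 and 0.63, between those of all genes and those of the members. Between dog and armadillo 2 of 40 were called higher in dog (12.6% of all genes) and 4 in armadillo (13.2% of all genes).

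Genes on this list higher in platypus included DERL3, a derlin of secretory cells (10.5 CPM in dog, 1.36 in armadillo, 875 in platypus), and EDEM3, a mannosidase of degradation (51.8, 43.4 and 564). XBP1, the transcription factor activated by IRE1, had 138 CPM in dog and 734 in platypus, 5.32-fold higher, and was not listed in armadillo. EIF2AK3, the kinase that senses unfolded protein, had 43.0, 45.8 and 110 CPM in dog, armadillo and platypus. It was 2.55-fold above dog and 2.40-fold above armadillo in platypus, below the 4-fold limit. Lower in platypus were PRKCSH, a glucosidase II subunit (457 CPM in dog and 8.91 in platypus), UGGT1, which checks glycoprotein folding (134, 148 and 12.5), and MIA3, which helps load collagen for export (377 in armadillo and 26.3 in platypus). COPA, a COPI subunit, had 733 and 675 CPM in dog and armadillo and 0 reads in platypus, while its partners COPB1, COPB2 and ARCN1 had 679, 655 and 385 CPM there.

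Summed markers of secretory cells, over genes that differ between tables, were higher in platypus, mostly through AGR2 and IGHM. Other markers ran in both directions, and the part of the markers in the differences was not tested. Of 10 markers of gland and secretory epithelium, the dog table listed 5, armadillo 6 and platypus 6. Their sums were 381, 301 and 1367 CPM, over genes that differ between tables. The platypus sum was mostly AGR2, a disulfide isomerase of secretory epithelia, at 1283 CPM against 7.56 in dog and 0.0757 (1 read) in armadillo, while the epithelial genes EPCAM and CLDN4 had 0.446 CPM (1 read) and 2.23 CPM in platypus and 168 and 205 CPM in dog. FOXA2 (0.661, 1.29 and 57.5 CPM in dog, armadillo and platypus) and SPDEF (0.0734 CPM, 1 read, in dog and 20.1 CPM in platypus) were higher in platypus. Of the gland markers matched with platypus, 3 of 5 against dog and 2 of 4 against armadillo were higher in platypus. Of 10 plasma cell markers 7, 3 and 7 were listed, with sums of 149 CPM in dog, 12.4 in armadillo, and 1232 CPM in platypus. The platypus sum was mostly the antibody heavy chain gene IGHM (1228 CPM, 12.8 in dog), which armadillo did not list. IGJ, SDC1 and IRF4 had 0 reads in platypus. Of the 7 plasma cell markers matched between dog and platypus, 3 were higher in platypus and 3 in dog. The 2 matched between armadillo and platypus, IGJ (9.76 CPM) and IRF4 (0.757 CPM), were higher in armadillo. SDC1 and PRDM1 stood at 94.5 and 36.9 CPM in dog, with 0.891 CPM of PRDM1 in platypus. Of 9 stromal markers 3, 8 and 7 were listed, with sums of 651, 26615 and 8559 CPM. The pair listed in all 3 tables were COL3A1 (535, 7623 and 294 CPM in dog, armadillo and platypus) and LUM (91.4, 333 and 1250 CPM).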

How the data were processed

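Libraries of pregnant endometrium (1 per species) were compared. Per the file headers, dog genes have estimated counts from the authors (mapped bases over 34 per read, with 516 values not whole and rounded here), and armadillo and platypus genes have raw counts from the authors. Mapped bases and a relative abundance are deposited for dog as scores. For 100% of 5644 dog genes with more than 500 reads, count over relative abundance, times a fitted constant, was whole within 0.1 bases, so it was taken as per gene length. The submitters' processing notes name Bowtie. Version, build and counting rule were not given in the sources used here. No coordinates were used. Lines holding totals were left out. The armadillo table lists only genes with reads.

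Genes were matched by upper-case symbol and rows sharing a symbol in a table were summed. No p-value was computed. Ratio intervals are exact and conditional on both counts, levels have exact Poisson limits, and shares exact Clopper-Pearson limits. Calls used a pseudocount of 1 CPM. The members, lists and limits were chosen with earlier results of these data known. Values are given in full for members called in at least 2 comparisons, for the highest and lowest ratios of each role, and for partners in a complex called in opposite directions. Alternatives were other scalings, pseudocounts, filters, fold limits and ways of naming. Scripts ran in Python 3.11.15 with scipy 1.17.1 and were tested on simulated data.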

Additional observations from a re-analysis of the deposited data

How the results depend on the processing

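Median-of-ratios scaling moved the median log2 ratio of all genes by -0.21 (dog over armadillo), -0.36 (dog over platypus) and -0.18 (armadillo over platypus). The members' medians became -0.22, -2.48 and -2.37 under it and -0.20, -2.40 and -2.31 under upper-quartile scaling, so the sign of the first, 0.09 as reported, reversed. Relative to all genes, the members' medians of platypus over dog and over armadillo were 2.50 and 3.17 as reported, 2.72 and 3.26 with median-of-ratios scaling and 2.71 and 3.25 with upper-quartile scaling. Members called higher in armadillo than in platypus numbered 3 instead of 5 with median-of-ratios scaling, and also 3 where genes at 0 were left out or 2 CPM was required in both libraries, which drop SEC24D and CREB3L1. Under those 2 filters the members' median of armadillo over platypus was -2.17, and 1 member instead of 3 was higher in dog than in platypus. With 2 CPM required in both libraries, the median over all genes fell from 1.06 to 0.26 for armadillo over platypus. The distance of the members from all genes was then smaller than the 3.17 reported. For dog over platypus the median over all genes was 0.52 instead of 0.61. Between dog and armadillo, a 2-fold limit called 3 of 34 members higher in dog and 7 in armadillo. With 1 CPM added, 70.6% of members and 46.0% of all matched genes lay within 2-fold there. Under both other scalings STT3B, HSPA5, KDELR2 and SAR1B were also called higher in platypus than in dog, and DDOST higher than in armadillo. Of 34 members, 7 changed sign between dog and armadillo under median-of-ratios scaling, none of them called. The cause of these changes with scaling was not tested. The remaining alternatives kept the direction, with counts within 1.5 times those reported. No paired analysis was possible because each species has 1 library. Depth limits the platypus values most, since 3 reads there are 1.34 CPM, against 0.220 in dog and 0.227 in armadillo.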
